A study of Homo sapiens with 4 samples.

Results

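The genes of cholesterol and fatty acid synthesis, with the sterol sensors that control them and a few sterol carriers, were examined in LX-2 cells, a human hepatic stellate cell line. They were taken as a list of 36 gene symbols, and of the 63677 Ensembl genes in the count table, 35 matched the list. Enough counts for a test were found for 34 of these, among 18252 tested genes in all. The exceptions were *ABCG1*, a sterol exporter for which the miControl libraries held 2 and 6 counts and the miR-6133-5p libraries 9 and 12, and *ACACA*, whose symbol could not be matched to the table and which was not analysed here.

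All cells had been transfected at 20 nM, 2 libraries with the miR-6133-5p mimic, a synthetic copy of a human microRNA, and 2 with a negative control mimic (miControl). Every culture then received 5 ng/mL of rhTGF-β1, an inducer of fibrogenesis, from 24 h after transfection, and RNA was collected after a further 24 h, so neither group shows cells without transfection or without rhTGF-β1. LX-2 is a single cell line, and no label ties the replicate numbers to separate cultures, so the p-values measure the spread between these libraries, which may be technical. Reads from polyA RNA were counted per gene, and 51862006 to 93811213 counts were assigned per library, the largest total being that of miR-6133-5p replicate 2. Levels are given as CPM, the usual scaling of a count to its library total, with totals scaled by the TMM factors of edgeR, and 3 counts corresponded to at most 0.061 CPM.

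The labelled cell type and the effect of the mimic were checked first. *TGFBR2*, a TGF-β receptor gene, stood at 542 and 552 CPM with miControl and at 109 and 112 CPM with miR-6133-5p. The 10 stellate cell markers summed to 5081 to 5599 CPM with miControl and to 3028 to 3366 CPM with miR-6133-5p, a difference that was mostly that of *COL1A1*. Of the 8 of them with enough counts for a test, *COL1A1*, *COL1A2*, *COL3A1*, *ACTA2* and *TAGLN* fell, while *VIM* (98.8% of the control level), *PDGFRB* (103%) and *RGS5* (149%) did not pass. *DES* had at most 3 counts in every library, and *LRAT* had 2 and 0 counts with miControl and 2 and 7 with miR-6133-5p. Of 5 hepatocyte markers, which summed to 54.3 to 55.6 CPM with miControl and 52.5 to 59.7 CPM with miR-6133-5p, nearly all counts were those of *CPS1*, whereas *APOA2*, *FGB* and *TAT* had at most 3 counts in every library. The 3 endothelial markers matched out of 4 summed to at most 2.99 CPM, the 4 macrophage and leukocyte markers to at most 11.02 CPM with *CD163* at no more than 3 counts, and the 3 epithelial markers to at most 0.242 CPM with *CDH1* at no more than 3 counts. In bulk RNA, fewer cells of a type and less RNA per cell cannot be told apart, and the part of the 5 stellate markers that fell in the results that follow was not tested.

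Cells make cholesterol from acetyl-CoA through mevalonate, isoprenoids and squalene, and they make fatty acids from the same acetyl-CoA. The enzymes of both routes are switched on together by the sterol regulatory element binding proteins (SREBPs), which are held in the endoplasmic reticulum by INSIG proteins when sterols are plentiful and escorted to the Golgi by SCAP when sterols are scarce. There the SREBPs are cut, and the released part enters the nucleus and binds sterol regulatory elements in target promoters. Hepatic stellate cells store lipid droplets in the quiescent state and lose them upon activation.

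Against miControl, the mimic left most of these genes within a narrow range, with a few large falls and fewer, smaller rises. *SREBF2* and *SCD* fell to about the same degree, to 48.3% and 49.4% of their control level, followed by the sterol carriers *ABCA1* (55.0%) and *STARD4* (63.9%) and the enzymes *SC5D* (71.9%) and *MVK* (74.7%). The genes that rose were *TM7SF2* (162%), *SREBF1* (142%) and *NPC1* (137%). These are the members with an adjusted p below 0.01 by edgeR's quasi-likelihood test, with Benjamini–Hochberg adjustment over all tested genes, which is what "rose" and "fell" refer to throughout. Of the 34 tested members, 6 fell (17.6%), where 10.9% of all tested genes fell, and 3 rose (8.82%), where 7.96% of all tested genes rose. Only *SREBF2*, *SCD* and *ABCA1* also had a log2 fold change below -0.8, the size threshold of the study's methods, which 5.54% of all tested genes met, and no member exceeded 0.8, which 2.9% of all tested genes did. Among members with an unadjusted p below 0.05, too, none was above 0.8 by edgeR or by DESeq2, and the largest rise was the 0.70 of *TM7SF2*. Without miControl replicate 1 or without miControl replicate 2, only *SREBF2* and *SCD* passed, and glmTreat, edgeR's test against 0.8 itself, called 0 members lower, with 2 at an unadjusted p below 0.05.

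At an adjusted p below 0.05, 10 members were lower and 5 higher, beside 16.1% and 14.1% of all tested genes. The median log2 fold change of the 34 members was -0.11, beside 0.03 over all tested genes, and 22 members were negative and 12 positive. The miR-6133-5p levels were both lower than either miControl level for 18 members (52.9%), where this held for 31.3% of all tested genes, and both higher for 8 members (23.5%), where it held for 33.2%. The levels of the other 8 overlapped between the groups. Summed over the list, the members took 7057 and 6936 CPM in the miControl libraries and 5618 and 5909 CPM in the miR-6133-5p libraries, 82.4% of the control level, and the largest differences in CPM were those of *SCD* and *ACLY*. When the libraries were scaled by their totals alone, without TMM factors, the median of the members became 0.051 and that of all genes 0.19. Scaling moves all genes by nearly the same amount, so the distance of the members from all genes, -0.14, was nearly fixed by construction. With that scaling, the members below an adjusted p of 0.01 became 4 lower and 6 higher.

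**Figure D1:**
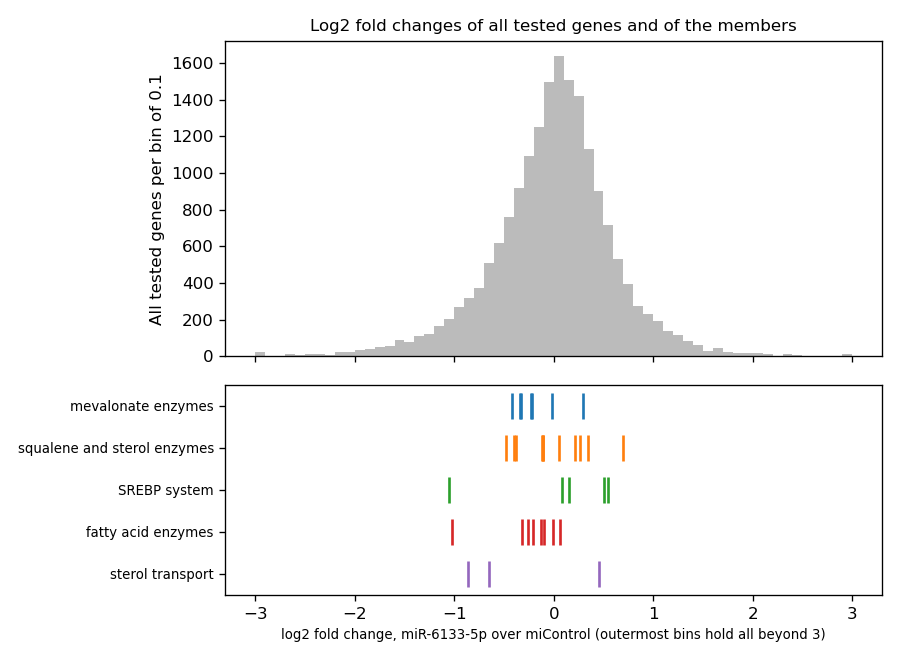
The upper panel shows how many of the 18252 tested genes fell in each bin of 0.1 in log2 fold change, miR-6133-5p over miControl, and the lower panel marks each of the 34 tested members by group. Most members lie within the bulk of all genes, and *SREBF2*, *SCD* and *ABCA1* stand to the left of -0.8.

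The regulators of the pathway moved in opposite directions. *SREBF2* (ENSG00000198911, chromosome 22 from 42229109 to 42303310 of GRCh37, plus strand) encodes the SREBP that mainly drives cholesterol synthesis. Its level was 281 and 263 CPM in the miControl libraries and 123 and 140.0 CPM in the miR-6133-5p libraries. The lower of the miControl values was thus well above the higher of the miR-6133-5p values. The log2 fold change was -1.05 (standard error, SE, 0.109, 95% interval -1.29 to -0.81, adjusted p = 1.13e-05 by edgeR's quasi-likelihood test). It remained between -1.16 and -0.98 in the fits that left out 1 library, with an adjusted p of at most 0.00287.

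*SREBF1* (ENSG00000072310, chromosome 17 from 17713713 to 17740316, minus strand) encodes the SREBPs that mainly drive fatty acid synthesis. It was measured at 36.8 and 32.8 CPM with miControl and at 47.0 and 51.5 CPM with miR-6133-5p, with no overlap. Its log2 fold change was 0.50 (SE 0.109, adjusted p = 0.00351 by edgeR's quasi-likelihood test). This call was lost when miControl replicate 1 (adjusted p = 0.0348) or replicate 2 (0.113) was left out. Per kilobase of exon, the level of *SREBF1* was 0.128 and 0.122 of that of *SREBF2* in the miControl libraries and 0.374 and 0.360 in the miR-6133-5p libraries, so *SREBF2* stayed the more abundant of the pair in all 4 libraries.

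The sensors that hold or carry the SREBPs did not pass the threshold. *INSIG2*, a retention protein, stood at 14.4 and 17.7 CPM with miControl and at 26.7 and 20.1 CPM with miR-6133-5p, where the groups did not overlap but the replicates were far apart (log2 fold change 0.54, SE 0.150, adjusted p = 0.0151 by edgeR's quasi-likelihood test). The adjusted p of *INSIG2* was 0.00822 with DESeq2 and 0.0161 with RLE normalization (edgeR), and 4 of the 6 alternative fits on all libraries passed it. Its log2 fold change ran from 0.31 to 0.72 with each library left out in turn. Its paralog *INSIG1*, itself a well-known SREBP target and far more abundant per kilobase, was measured at 251 and 258 CPM with miControl and at 285 and 254 CPM with miR-6133-5p. These ranges overlapped, and the 95% interval of its log2 fold change ran from -0.15 to 0.31. *SCAP*, the escort, was also within overlapping ranges, at 71.6 and 63.7 against 71.0 and 79.6 CPM, with an interval from -0.08 to 0.39.

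**Figure D2:**
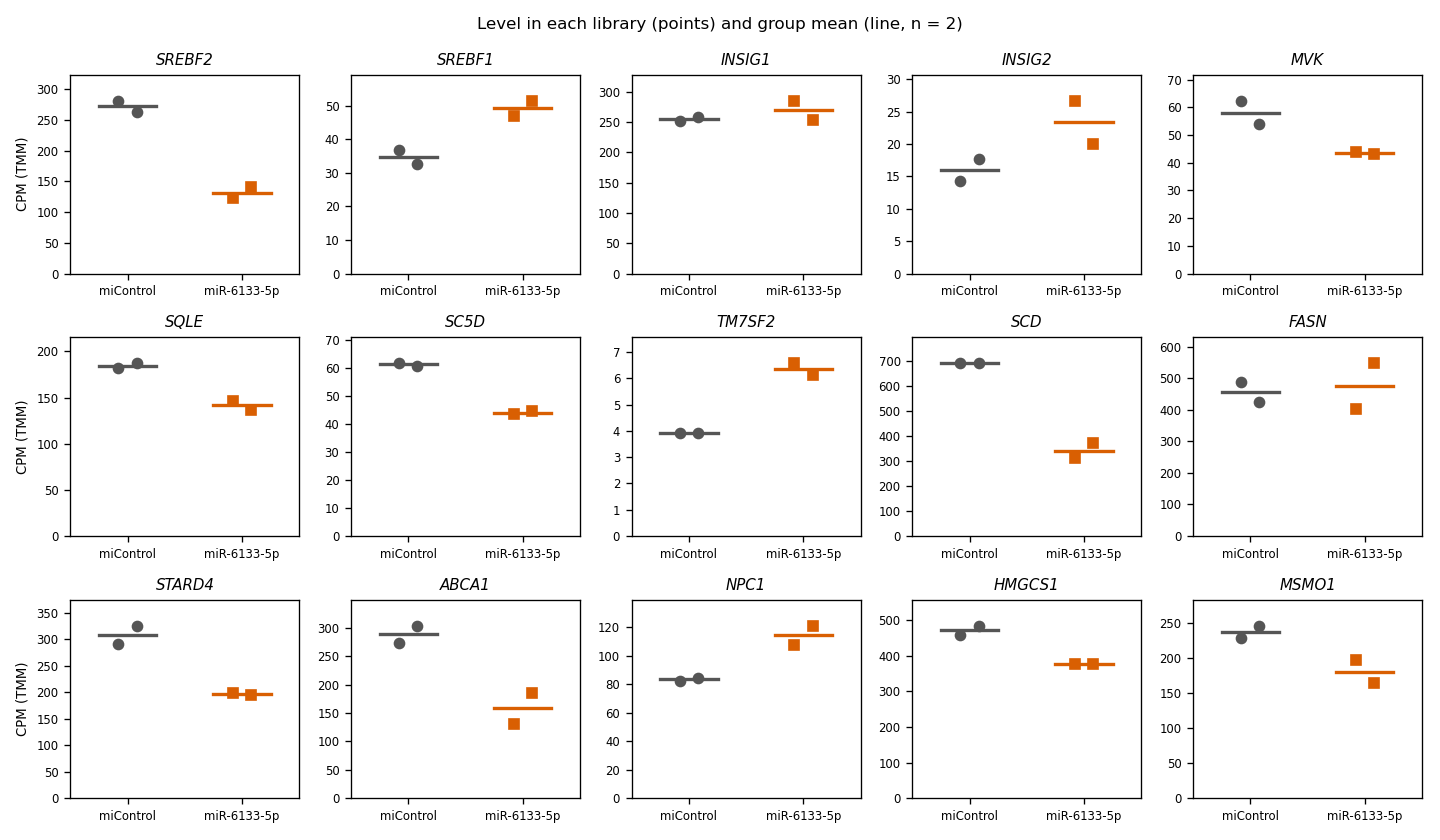
TMM-scaled CPM of 15 members in each library, with miControl as gray circles, miR-6133-5p as orange squares and the mean of each group (n = 2) as a line; every vertical axis starts at 0. *SREBF2* and *SCD* are at about the same fraction of their control level, *SREBF1* and *NPC1* are higher in both miR-6133-5p libraries, and *INSIG1* and *FASN* overlap between the groups.

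Because SREBPs act through short promoter sequences, the 250 bases before the transcription start were searched in RefSeq promoters (GRCh38.p14), which held 31 of the 36 members. Where a gene had several listed starts, only the first was searched, so a match at another start would be missed. The motifs were the sterol regulatory element TCACCCCAC, its looser form TCACNCCA, which contains every match of the first, and CCAAT, the site of the factor NF-Y that often works beside SREBPs, each on both strands. The stricter form was found in 1 member, *SREBF2*, and in 0.348% of 27305 promoters. Matches to the looser form were found in *MVK*, *MSMO1* and *SREBF2*, 9.68% of the members searched, and in 3.18% of all promoters (2.73% of the promoters of tested genes). CCAAT was found in 19 of 31 members, 61.3%, and in 33.0% of all promoters (34.6% for tested genes). A match describes these letters only and was not tested for binding.

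The stretches around the sterol element matches, and that of *SCD*, which has CCAAT but neither form of the sterol element in this window, are given on the plus strand, 5′ to 3′, with the motifs on either strand in capitals (CCAAT reads ATTGG where it lies on the other strand). They span chr22:41832960-41833015 for *SREBF2*, chr12:109573572-109573764 for *MVK*, chr4:165327472-165327651 for *MSMO1* and chr10:100346992-100347063 for *SCD*. The last line is the RefSeq hairpin of *MIR6133* (chr7:133290881-133290988, plus strand), the precursor from which the microRNA given as a mimic derives.
SREBF2: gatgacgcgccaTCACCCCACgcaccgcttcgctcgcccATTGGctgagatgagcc
MVK: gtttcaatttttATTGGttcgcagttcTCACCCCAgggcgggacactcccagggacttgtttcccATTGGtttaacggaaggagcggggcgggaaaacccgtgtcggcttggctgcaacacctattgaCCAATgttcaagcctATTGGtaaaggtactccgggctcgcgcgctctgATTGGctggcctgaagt
MSMO1: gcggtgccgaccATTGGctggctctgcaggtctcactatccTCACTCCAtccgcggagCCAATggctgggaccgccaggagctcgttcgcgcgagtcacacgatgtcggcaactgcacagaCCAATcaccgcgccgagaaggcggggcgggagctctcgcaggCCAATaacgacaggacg
SCD: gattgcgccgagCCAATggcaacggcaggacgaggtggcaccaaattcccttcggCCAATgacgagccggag
MIR6133: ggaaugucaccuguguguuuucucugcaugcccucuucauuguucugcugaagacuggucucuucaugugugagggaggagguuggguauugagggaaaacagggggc

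Of the genes with a sterol element match, *SREBF2* and *MVK* fell, and *MSMO1* had a log2 fold change of -0.40 with an adjusted p of 0.0181 by edgeR. *SCD*, which also fell, was not printed for such a match, so no share is read from these 4 promoters. Over all tested genes, 10.9% fell. Among the 19 members with CCAAT, *SREBF2*, *SCD*, *MVK*, *SC5D* and *STARD4* fell and *TM7SF2* rose. The others did not pass, and *INSIG1* and *MVD* are among those whose levels overlapped between the groups. A link between motif and change was not tested.

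Among the 7 enzymes from acetyl-CoA to farnesyl diphosphate, 1 fell (14.3%, beside 10.9% of all tested genes) and none rose (beside 7.96%). Their median log2 fold change was -0.23. *MVK* (ENSG00000110921, chromosome 12 from 110011060 to 110035930, plus strand), mevalonate kinase, was measured at 62.4 and 53.8 CPM with miControl and at 43.8 and 43.0 CPM with miR-6133-5p. The groups did not overlap, although the miControl libraries were far apart. Its log2 fold change was -0.42 (SE 0.108), with an adjusted p of 0.00988 (edgeR's quasi-likelihood test) that is just within the threshold and became 0.176 without miControl replicate 1, 0.0215 without miControl replicate 2 and 0.0834 with library totals alone.

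*HMGCS1*, which makes HMG-CoA, went from 458 and 484 CPM to 375 and 376 CPM, a log2 fold change of -0.33 (adjusted p = 0.0264, edgeR). *ACAT2*, which joins acetyl-CoA units at the entry of the pathway, went from 214 and 207 CPM to 176 and 156 CPM (log2 fold change -0.34, adjusted p = 0.0264, edgeR). Both lay lower in each miR-6133-5p library than in any miControl library and missed the threshold. The adjusted p of *HMGCS1* and *ACAT2* was 0.00618 and 0.00867 with DESeq2, but 0.233 and 0.213 with library totals alone (edgeR). With each library left out in turn, the log2 fold change ran from -0.38 to -0.31 for *HMGCS1* and from -0.45 to -0.27 for *ACAT2*. Genes on the opposite strand share 37.7% of the exon bases of *HMGCS1* and 22.2% of those of *ACAT2*, and if strand was not used in counting, part of their counts is uncertain.

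*FDPS*, which makes farnesyl diphosphate, was measured at 118 and 108 CPM with miControl and at 97.1 and 94.95 CPM with miR-6133-5p. *IDI1*, the isomerase before it, was at 96.0 and 105 CPM with miControl and at 94.8 and 78.0 CPM with miR-6133-5p. Both were lower without overlap but missed the threshold (log2 fold changes -0.23 and -0.22, adjusted p = 0.113 and 0.178, edgeR). With library totals alone, the adjusted p was 0.659 for *FDPS* and 0.739 for *IDI1* (edgeR). The log2 fold change of *IDI1* ran from -0.39 to -0.10 with each library left out in turn. These genes have named pseudogene copies, 8 for *FDPS* and 3 for *IDI1*, with which reads may be shared. *MVD*, which decarboxylates the diphosphate, overlapped between the groups, at 35.2 and 30.4 against 32.4 and 32.3 CPM. *PMVK*, the kinase after *MVK*, was higher in both miR-6133-5p libraries, at 11.7 and 10.2 CPM against 9.80 and 8.005 CPM, with a 95% interval of the log2 fold change from -0.01 to 0.61. Summed, the 7 enzymes took 993 and 996 CPM with miControl and 831 and 791 CPM with miR-6133-5p, 81.5% of the control level.

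Of the 11 enzymes that turn farnesyl diphosphate into squalene and sterols, 1 fell and 1 rose (9.09% each). These shares were near the 10.9% and 7.96% of all tested genes, and the median log2 fold change of the 11 was -0.10. *SC5D* (ENSG00000109929, chromosome 11 from 121163390 to 121184119, plus strand), the sterol desaturase near the end of the pathway, was measured at 61.6 and 60.7 CPM with miControl and at 43.4 and 44.5 CPM with miR-6133-5p. Replicates lay close together in both groups, and the log2 fold change was -0.48 (SE 0.0997, adjusted p = 0.00279 by edgeR's quasi-likelihood test). The adjusted p was 0.0538 without miControl replicate 1, 0.0307 without miControl replicate 2 and 0.0267 with library totals alone.

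*TM7SF2* (ENSG00000149809, chromosome 11 from 64879317 to 64883856, plus strand), a sterol reductase, was the least abundant tested member per kilobase. Its level rose from 3.93 and 3.91 CPM to 6.58 and 6.14 CPM, without overlap. The log2 fold change of 0.70 (SE 0.156, adjusted p = 0.00423 by edgeR's quasi-likelihood test) was the largest rise of the list. The rise did not pass without miControl replicate 1 or 2, although its log2 fold change stayed at 0.69 and 0.67 in these fits.

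*SQLE*, the oxidase that commits squalene to sterols, was measured at 182 and 187 CPM with miControl and at 147 and 137 CPM with miR-6133-5p (log2 fold change -0.38, adjusted p = 0.0125, edgeR). *MSMO1*, a sterol demethylating enzyme, was measured at 229 and 246 CPM with miControl and at 197 and 164 CPM with miR-6133-5p. Both were lower without overlap and just missed the threshold. The adjusted p of *SQLE* and *MSMO1* was 0.00181 and 0.00419 with DESeq2, but 0.117 and 0.128 with library totals alone (edgeR). With each library left out in turn, the log2 fold change ran from -0.45 to -0.35 for *SQLE* and from -0.55 to -0.29 for *MSMO1*. In the other direction, *EBP*, a sterol isomerase, went from 24.4 and 22.9 CPM to 30.9 and 29.2 CPM (log2 fold change 0.34, adjusted p = 0.0295, edgeR). *LSS*, which closes the sterol rings, went from 67.2 and 63.6 CPM to 74.6 and 82.5 CPM (0.27, adjusted p = 0.071, edgeR). With library totals alone *EBP* (adjusted p = 0.00288) and *LSS* (0.00593) passed. Another gene on the same strand shares 36.4% of the exon bases of *EBP*, so its level is uncertain.

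The remaining sterol enzymes did not pass the test. *FDFT1*, squalene synthase, was higher in both miR-6133-5p libraries, at 119 and 105 CPM against 98.9 and 94.97 CPM, with an adjusted p of 0.160 (edgeR). *NSDHL* and *DHCR7*, enzymes of the later steps, were lower in both, with log2 fold changes of -0.10 and -0.12 whose 95% intervals, -0.32 to 0.11 and -0.35 to 0.11, include 0. *HSD17B7*, which has 2 named pseudogene copies, and *CYP51A1*, the lanosterol demethylase, which has 3, overlapped between the groups. For *CYP51A1*, 68.2% of the exon bases are shared with another gene on the same strand, so the 9.62 to 13.4 CPM counted may leave out reads of that gene or include reads of the other. Summed, the 11 enzymes were at 89.6% of the control level.

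**Figure D3:**
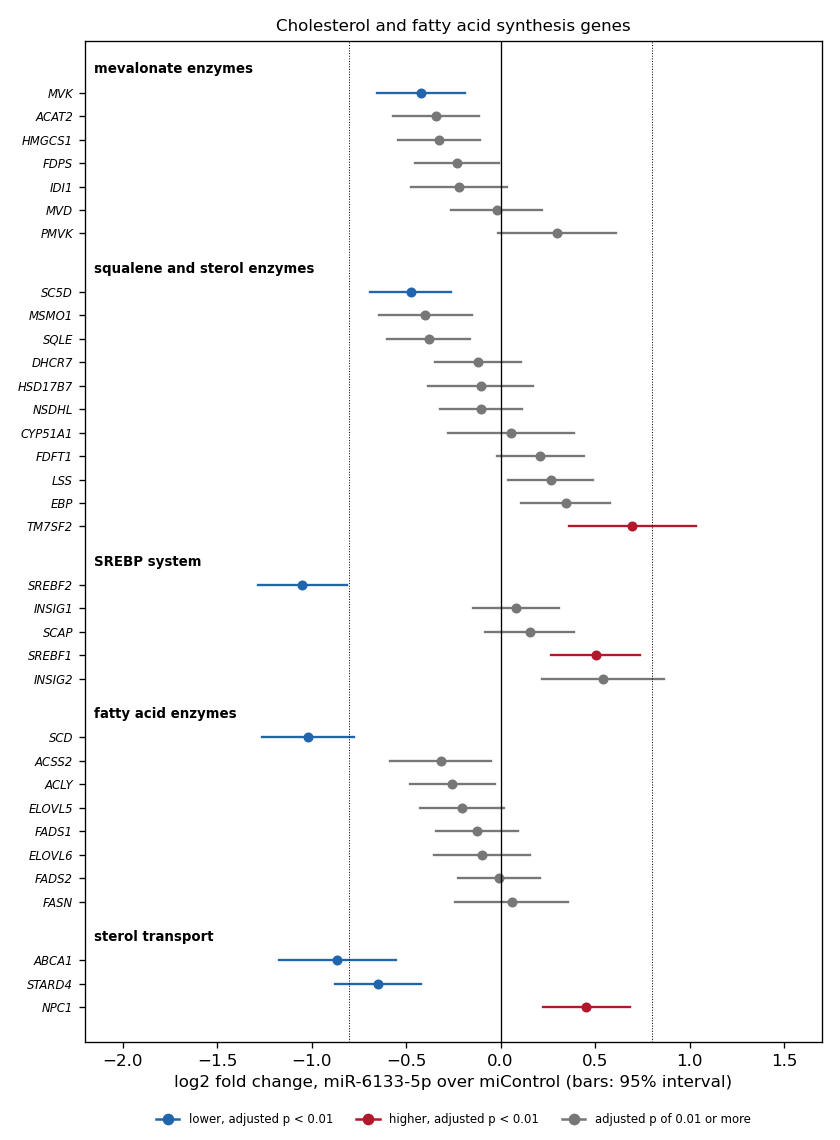
Log2 fold change of each tested member, miR-6133-5p over miControl, with its 95% interval from the edgeR fit (2 libraries per group), ordered within its group; dotted lines mark 0.8 in either direction. The 6 members that fell are blue, the 3 that rose are red, and the other 25 are gray.

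Among the 8 tested enzymes of fatty acid synthesis, 1 fell, *SCD* (12.5%, beside 10.9% of all tested genes). The other 7 did not pass, and none rose (beside 7.96%). *SCD* (ENSG00000099194, chromosome 10 from 102106990 to 102124583, plus strand), the desaturase that makes monounsaturated fatty acids, was measured at 689.9 and 689.6 CPM with miControl and at 311 and 370.0 CPM with miR-6133-5p. Its replicates were nearly equal with miControl and further apart with miR-6133-5p, far from overlap. The log2 fold change was -1.02 (SE 0.112, 95% interval -1.26 to -0.78, adjusted p = 1.8e-05 by edgeR's quasi-likelihood test), and it stayed between -1.17 and -0.92 when each library was left out, with an adjusted p of at most 0.00407. *SCD* has 1 named pseudogene copy, *SCDP1*, with which reads may be shared.

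*FASN*, fatty acid synthase, was measured at 487 and 424 CPM with miControl and at 402 and 547 CPM with miR-6133-5p. The miR-6133-5p libraries lay on either side of the miControl libraries, and the 95% interval of the log2 fold change ran from -0.24 to 0.36. Per kilobase of exon, *SCD* was 2.52 and 2.89 times as abundant as *FASN* in the miControl libraries and 1.38 and 1.20 times in the miR-6133-5p libraries. *ACLY*, which supplies cytosolic acetyl-CoA from citrate and was the most abundant member per kilobase, was lower in both miR-6133-5p libraries, at 1158 and 1297 CPM against 1496 and 1432 CPM. It missed the threshold (log2 fold change -0.25, adjusted p = 0.0817, edgeR). The log2 fold change of *ACLY* was -0.09 with library totals alone (adjusted p = 0.532, edgeR). It ran from -0.35 to -0.19 with each library left out in turn. *ACSS2*, which makes acetyl-CoA from acetate, was also lower in both, at 13.3 and 12.5 CPM against 17.1 and 15.0 CPM (log2 fold change -0.32, adjusted p = 0.0702, edgeR).

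The elongases and the other desaturases did not pass the test. *ELOVL5* was at 309 and 319 CPM with miControl and at 284 and 260.5 CPM with miR-6133-5p (log2 fold change -0.21, adjusted p = 0.155, edgeR). With each library left out in turn, the log2 fold change of *ELOVL5* ran from -0.29 to -0.16. *ELOVL6* overlapped between the groups, at 18.7 to 22.2 CPM over all libraries. *FADS1* and *FADS2*, which lie on opposite strands of chromosome 11 with *FADS1* inside the annotated span of *FADS2*, had log2 fold changes of -0.12 and -0.01, with 95% intervals from -0.34 to 0.09 and from -0.23 to 0.21. Summed, the 8 tested enzymes took 3770 and 3608 CPM with miControl and 2885 and 3215 CPM with miR-6133-5p, 82.7% of the control level.

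**Figure D4:**
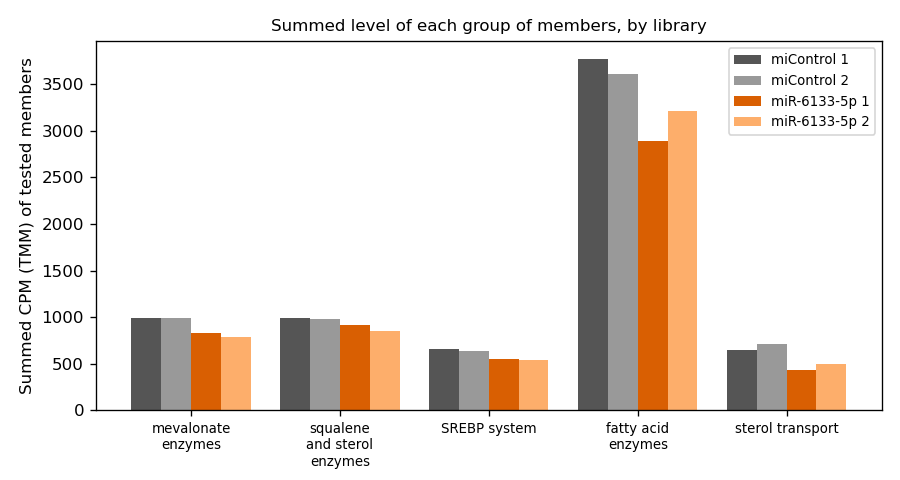
Summed TMM-scaled CPM of the tested members of each group, with 1 bar per library and an axis from 0. With this scaling, both miR-6133-5p libraries are below both miControl libraries in all 5 groups, and the fatty acid enzymes make up the largest sum. Sums without TMM factors are not shown, and their order may differ. In the SREBP system, 4 genes had a positive log2 fold change and 1, *SREBF2*, a negative one.

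All 3 tested members that move sterols passed the test, 2 lower and 1 higher, where 10.9% of all tested genes fell and 7.96% rose. No share is read from 3 genes, and *ABCG1* of the same group had too few counts for a test. *ABCA1* (ENSG00000165029, chromosome 9 from 107543287 to 107690436, minus strand) exports cholesterol to lipoprotein particles and is a target of the LXR sterol receptors. It was measured at 274 and 304 CPM with miControl and at 131 and 186 CPM with miR-6133-5p, where the replicates differed widely but stayed below miControl. The log2 fold change was -0.86 (SE 0.144, adjusted p = 0.000554 by edgeR's quasi-likelihood test). It depended on the libraries, being -0.65 without miR-6133-5p replicate 1 and -1.15 without replicate 2, and the adjusted p was 0.0145 and 0.0141 without miControl replicates 1 and 2. With library totals alone it was -0.70.

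*STARD4* (ENSG00000164211, chromosome 5 from 110831731 to 110848288, minus strand), a soluble carrier of cholesterol between membranes and an SREBP target, was measured at 290.1 and 326 CPM with miControl and at 199 and 195 CPM with miR-6133-5p. All miR-6133-5p values were below all miControl values, and the log2 fold change was -0.65 (SE 0.106, adjusted p = 0.000465 by edgeR's quasi-likelihood test). Its adjusted p was 0.0111 without miControl replicate 1 and 0.0214 without miControl replicate 2. *NPC1* (ENSG00000141458, chromosome 18 from 21086148 to 21166470, minus strand), which releases cholesterol from lysosomes, went the other way. It was measured at 82.6 and 84.2 CPM with miControl and at 107 and 121 CPM with miR-6133-5p, for a log2 fold change of 0.45 (SE 0.106, adjusted p = 0.00549 by edgeR's quasi-likelihood test). The groups did not overlap, and the adjusted p was 0.112 and 0.0891 without miControl replicates 1 and 2.

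A second list of 69 genes of the same pathways, 67 of them tested, was examined to place the members. In it 10 genes fell (14.9%, beside 10.9% of all tested genes), 6 rose (8.96%, beside 7.96%), and the median log2 fold change was -0.06, beside 0.03 over all tested genes. Among the abundant genes that passed (mean log2 CPM of 3 or more), the largest falls were those of *SEC24D*, *SEC24A* and *TMEM97*, and the largest rises were those of *FADS3*, *ELOVL4* and *OSBPL2*.

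*SEC24D* and *SEC24A* encode cargo adaptors of the COPII coat, which carries proteins, the SCAP and SREBP complex among them, from the endoplasmic reticulum to the Golgi. *SEC24D* was measured at 176 and 179.8 CPM with miControl and at 70.6 and 73.5 CPM with miR-6133-5p, for a log2 fold change of -1.30 (SE 0.102, adjusted p = 9.83e-07 by edgeR's quasi-likelihood test). *SEC24A* was measured at 161 and 176 CPM with miControl and at 71.5 and 74.9 CPM with miR-6133-5p, for a log2 fold change of -1.203 (SE 0.105, adjusted p = 2.46e-06 by edgeR's quasi-likelihood test). Both stood clear of the control range in each library and passed with every library left out in turn. Of the 14 genes of SREBP processing and turnover, 4 fell (28.6%, beside 10.9% of all tested genes) and none rose (7.96% of all tested genes did), the other falls being those of *SEC24B* (-0.999) and *SEC23A* (-0.51), both COPII coat genes that were chosen for mention after their values were seen. Without miControl replicate 1 or 2, *SEC23A* had an adjusted p of 0.0415 or 0.0413 (edgeR). The coat genes *SEC24C* (log2 fold change -0.08, 95% interval -0.31 to 0.15) and *SEC23B* (0.19) and the proteases *MBTPS1* (-0.06) and *MBTPS2* (0.37, adjusted p = 0.0135, edgeR), which cut the SREBPs, also chosen after their values were seen, did not pass, and a gene on the opposite strand shares 42.8% of the exon bases of *SEC24C*.

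*TMEM97*, a sterol-related membrane protein known to interact with NPC1, was measured at 176 and 179 CPM with miControl and at 92.7 and 80.5 CPM with miR-6133-5p, for a log2 fold change of -1.04 (SE 0.108, adjusted p = 1.19e-05 by edgeR's quasi-likelihood test). It was lower in both miR-6133-5p libraries, while *NPC1* was higher in both. A gene on the opposite strand shares 12.3% of its exon bases. Of the 14 tested sterol and isoprenoid genes outside the member list, *TMEM97* among them, 2 fell (14.3%, beside 10.9% of all tested genes) and none rose (beside 7.96%).

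Among 22 other fatty acid enzymes, 1 fell (4.55%, beside 10.9% of all tested genes) and 3 rose (13.6%, beside 7.96%). *FADS3*, a desaturase relative next to *FADS1* and *FADS2*, was measured at 50.9 and 44.3 CPM with miControl and at 78.9 and 76.6 CPM with miR-6133-5p (log2 fold change 0.71, SE 0.107, adjusted p = 0.00026 by edgeR's quasi-likelihood test). *ELOVL4*, an elongase of very long chains, was measured at 27.2 and 28.0 CPM with miControl and at 45.4 and 41.3 CPM with miR-6133-5p (0.65, SE 0.107, adjusted p = 0.000474 by edgeR's quasi-likelihood test). Both were higher in each miR-6133-5p library than in any miControl library, and leaving out miControl replicate 2 raised their adjusted p to 0.0211 and 0.0142, while without replicate 1 that of *ELOVL4* was 0.0257.

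Of 17 further genes of sterol transport and the LXR system, 3 fell and 3 rose (17.6% each, beside 10.9% and 7.96% of all tested genes). *OSBPL2*, an oxysterol binding protein relative, was measured at 31.1 and 31.4 CPM with miControl and at 46.7 and 47.0 CPM with miR-6133-5p. The replicates were nearly equal, and the log2 fold change was 0.58 (SE 0.102, adjusted p = 0.000774 by edgeR's quasi-likelihood test), with an adjusted p of 0.0326 and 0.0251 without miControl replicates 1 and 2.

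**Figure D5:**
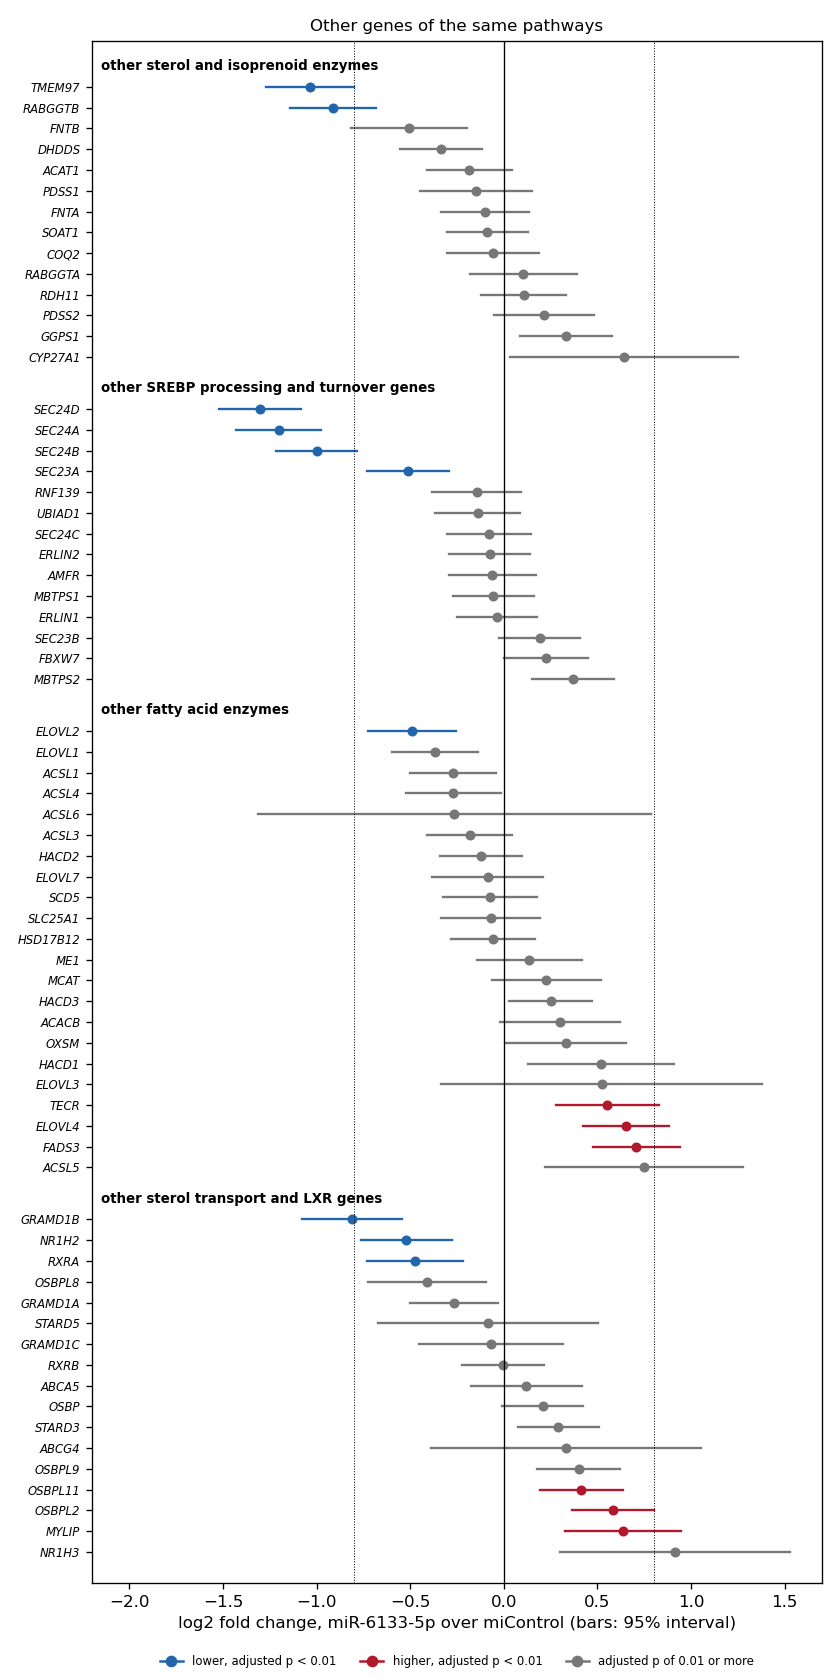
Log2 fold change of the 67 tested genes of the second list, miR-6133-5p over miControl, with 95% intervals from the edgeR fit (2 libraries per group); dotted lines mark 0.8 in either direction. The 10 genes that fell are blue and the 6 that rose are red, and *SEC24D* and *SEC24A* are the lowest of the list.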

How the data were processed

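RNA sequencing libraries of LX-2 cells, 2 per group, were analysed. Per the submitters' processing notes, STAR 2.5.3a, featureCounts and Subread 1.6.4 were used with GRCh37. The authors deposited raw counts per Ensembl gene, without normalization, in a table and again per library. The strand setting of the counting is not given in the sources used here. Counts came to 1.68 to 1.70 per uniquely mapped pair, more than 1, so mates appear to have been counted singly. A symbol was found for 87.4% of 63677 IDs.

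In edgeR 4.0.16 (R 4.3.3), low counts were removed by filterByExpr, TMM factors were computed, and differences were tested 2-sided with glmQLFit and glmQLFTest, with no block for replicate number, and p-values were adjusted by Benjamini–Hochberg over 18252 genes. The thresholds of the study's methods, an adjusted p of 0.01 and a log2 fold change of 0.8, were used. Variance was shared across genes (common biological coefficient of variation 0.105), since 2 libraries per group give little of their own. Standard errors were derived from the F statistic, and CPM carry no pseudocount. Positions and exon overlaps were read from GENCODE genes lifted to GRCh37. The procedure was tested on simulated data.

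The members and lists were chosen with earlier results of these data known. All members could be named, and of the second list the 3 largest falls and rises among genes with an adjusted p below 0.01 whose mean log2 CPM was 3 or more. The alternatives tried were DESeq2 1.42.0, RLE normalization, library totals without TMM factors, no filter, at least 10 counts in every library, a replicate block, each library left out, glmTreat and an adjusted p of 0.05. Python 3.11.15 with pandas 2.3.3, numpy 2.4.6 and matplotlib 3.10.9 was used for tables and plots.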

Additional observations from a re-analysis of the deposited data

How the results depend on the processing

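All 9 members that passed kept their direction under every alternative fit and passed with RLE normalization, DESeq2, both other filters, the replicate block and without either miR-6133-5p library. With library totals alone 7 passed, and without either miControl library only *SREBF2* and *SCD* did. Such fits leave 1 library in an arm, assumed to vary like the other arm. Of 340 values of members under alternatives, 285 kept direction and side of the threshold.

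With each library left out in turn, 2 to 12 members were lower and 0 to 4 higher at an adjusted p below 0.01 by edgeR, and in the second list 6 to 12 genes were lower and 0 to 11 higher. Where no member was higher, without miControl replicate 1 or 2, 5 and 4 members were higher at an unadjusted p below 0.05, and DESeq2 on all libraries had 4 at its adjusted threshold. With library totals alone, 6 members were higher, 1 of them above 0.8 (0.86, *TM7SF2*), the median of the members was 0.051 (all genes 0.19), and the second list had 6 lower and 13 higher. Of all genes called beyond 0.8, 42.1% were then lower, against 65.6% with TMM. DESeq2 gave 10 members lower and 4 higher. At an adjusted p below 0.05, 10 members were lower and 5 higher, where 16.1% and 14.1% of all tested genes were, and in the second list 14 were lower and 13 higher.

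glmTreat, which tests against 0.8 itself, called 0 members lower (*SREBF2* adjusted p = 0.119, *SCD* 0.205), with 2 at an unadjusted p below 0.05, and 326 genes lower and 80 higher over all. With the replicate block, 8 members were lower and 4 higher, and 13 genes of the second list were lower and 10 higher. Same-numbered libraries had a correlation of 0.049 in their deviations and share only a number.

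Members that changed sign, none of which had passed, were with library totals alone *MVD* (0.14), *NSDHL* (0.060), *HSD17B7* (0.059), *DHCR7* (0.042), *ELOVL6* (0.064), *FADS1* (0.039) and *FADS2* (0.16), and in the fits without 1 library *MVD* (-0.15 to 0.076), *CYP51A1* (-0.22 to 0.25), *HSD17B7* (-0.29 to 0.035), *INSIG1* (-0.022 to 0.15), *FASN* (-0.20 to 0.25) and *FADS2* (-0.082 to 0.027). The cause was not tested.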
